A study of Homo sapiens with 5 samples.

Results

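The liver X receptors NR1H2 and NR1H3, their partner RXRA, and 5 genes known as their sterol and lipid targets, ABCA1, ABCG1, MYLIP, LPCAT3 and APOE, were followed in leukaemia cells taken from the brain and the spleen of mice. These 8 genes were matched by Ensembl identifier to their symbols in the human gene table, which lists 65217 identifiers, and their transcripts were read from the transcript tables. All 8 were found, and 8 of 8 passed the filter on low counts. REH cells, an established human B cell precursor acute lymphoblastic leukaemia line with the ETV6-RUNX1 (TEL-AML1) fusion, were transplanted into immunodeficient NOD.Cg-PrkdcscidIl2rgtm1Wjl/SzJ (NSG) mice. The brain group was leukaemia cells recovered from the leptomeninges (3 libraries) and the spleen group was leukaemia cells recovered from the spleen (2 libraries). The labels name no further agent for either group, and both came from 1 cell line and were purified on a Ficoll gradient. Each library held RNA combined from 5 mice, and the experiment was run on 3 occasions, and the spleen library of the last occasion failed the submitters' quality control. The spread between libraries is therefore that between pools and occasions, not between animals.

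Liver X receptors are nuclear receptors that sense oxysterols and sterol intermediates such as desmosterol. They sit on DNA as heterodimers with a retinoid X receptor, hold target genes down with corepressors when no ligand is bound, and raise transcription when a ligand arrives. Their best known targets move cholesterol out of the cell (ABCA1, ABCG1), carry it in lipoproteins (APOE), remodel membrane phospholipids (LPCAT3) and mark lipoprotein receptors for degradation (MYLIP, also called IDOL).

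Human gene totals ran from 38387991 to 48764202 estimated counts per library. Reads on mouse transcripts made up 2.58% to 5.70% of estimated counts in brain libraries and 6.33% and 8.87% in spleen libraries, so on this scale the groups did not overlap and the mouse share was lower in brain. As a share of TPM they overlapped, at 10.4%, 4.36% and 3.10% in brain replicates 1 to 3 and 7.98% and 10.5% in spleen replicates 1 and 2. The labelled cell type was checked against 12 B precursor markers, of which 11 were measured and VPREB1 was listed at 0. Their summed level was 8241 to 8660 CPM (counts scaled to a common library size) in brain and 8872 to 9143 CPM in spleen, without overlap. CD79A was lower in brain (log2 fold change -0.61) and RAG1 was higher (0.55), and the other 9 did not pass edgeR's test. Human macrophage markers summed to 4.48 to 8.55 CPM in brain and 3.76 to 5.78 CPM in spleen, and human T and NK markers to 4.56 to 4.67 and 4.41 to 4.74 CPM. Human astrocyte, microglia and neuron markers summed to at least 10.4 CPM in every brain library and to 11.4 and 12.7 CPM in the spleen libraries, with GFAP and the others not past the threshold and SNAP25 at 0. Human endothelial, fibroblast and erythroid markers summed to 12.1 to 20.3 CPM in brain and 3.26 to 4.06 CPM in spleen. PECAM1 alone made up 10.2 to 17.4 CPM and 1.09 to 1.78 CPM of these sums, the list's median log2 fold change was -0.040, and CDH5 held 0 to 6 counts. Of the 5 genes tested in that list only PECAM1 passed edgeR's test, and of the 6 tested macrophage markers only CD68 passed. MARCO held 0 to 1 counts. The part of these markers in the results was not tested.

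Promoter sequence was available from RefSeq (GRCh38.p14) for 7 of the 8 genes, in 13 windows of 250 bases before a start. ABCG1 had no entry, so its promoter was not searched. An LXR element is a pair of AGGTCA repeats in the same direction with any 4 bases between them, and it was searched on both strands with up to 3 of its 12 set letters differing. The promoters of the transporter ABCA1 and of the ligase MYLIP are shown because both genes were higher in brain while their promoters differ in this search. ABCA1 lies at chr9:104928156-104928405 on the minus strand, with the LXR element match in capitals, and MYLIP at chr6:16128836-16129085 on the plus strand, with the GC boxes (GGGCGG) in capitals.
ABCA1: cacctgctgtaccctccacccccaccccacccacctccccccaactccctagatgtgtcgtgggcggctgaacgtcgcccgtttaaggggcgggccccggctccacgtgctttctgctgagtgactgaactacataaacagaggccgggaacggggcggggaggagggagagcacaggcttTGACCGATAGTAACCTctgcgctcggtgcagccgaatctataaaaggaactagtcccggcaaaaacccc
MYLIP: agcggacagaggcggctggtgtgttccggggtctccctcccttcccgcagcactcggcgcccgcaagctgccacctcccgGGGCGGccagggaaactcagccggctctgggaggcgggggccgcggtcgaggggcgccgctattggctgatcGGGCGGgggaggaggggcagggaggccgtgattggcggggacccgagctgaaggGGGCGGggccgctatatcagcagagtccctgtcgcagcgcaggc

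The ABCA1 match lay at positions -69 to -54 from the start, read on the reverse strand, with 2 letters differing. A match with up to 2 letters differing was present in 2.03% of all 35116 promoters searched, and one with up to 3 in 16.0%. The other match among the 7 genes searched was in the second RXRA window, with 3 letters differing. The MYLIP window held no LXR element match and 3 GC boxes. At least 1 GC box was present in 42.6% of all promoters and in 9 of the 13 windows here. The ABCA1 window also held the E-box CACGTG at -147 to -142, present in 6.34% of promoters and in no other window here. That E-box contains the hypoxia element ACGTG on both strands, which 18.5% of promoters hold and no other window here held. A single AGGTCA repeat was found exactly in 1 window of NR1H3 and in 12.1% of all promoters. The sterol element TCACNCCAC, with up to 1 letter differing, was found in windows of ABCA1, APOE and NR1H3 and in 20.9% of all promoters. These are letter matches only, and binding was not measured.

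In leukaemia cells from brain, the cholesterol transporters ABCG1 and ABCA1 and the ubiquitin ligase MYLIP were higher than in cells from spleen, by 11.2, 4.90 and 2.67 times. The receptors NR1H2 and NR1H3, their partner RXRA, the acyltransferase LPCAT3 and the lipoprotein APOE did not pass the test. Of the 8 genes, 3 were thus higher and 0 lower, where over all 20419 genes tested 6.01% were higher and 3.5% lower (9.51% in either direction), with a threshold of 0.05 on the adjusted p of edgeR's quasi-likelihood test. The lowest brain library exceeded the highest spleen library for 5 of the 8 (NR1H2, ABCA1, ABCG1, MYLIP and LPCAT3), against 23.3% of all genes, and the order was inverse for 1 (NR1H3), against 19.5%. The number of genes higher over the whole table fell from 1228 to 515, 593 and 752 without brain replicate 1, brain replicate 2 and spleen replicate 1. The number lower fell from 714 to 146, 249, 457 and 295 without brain replicates 1, 2 and 3 and spleen replicate 1. In bulk RNA, fewer cells expressing a gene and less RNA per cell cannot be told apart.

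**Figure D1:**
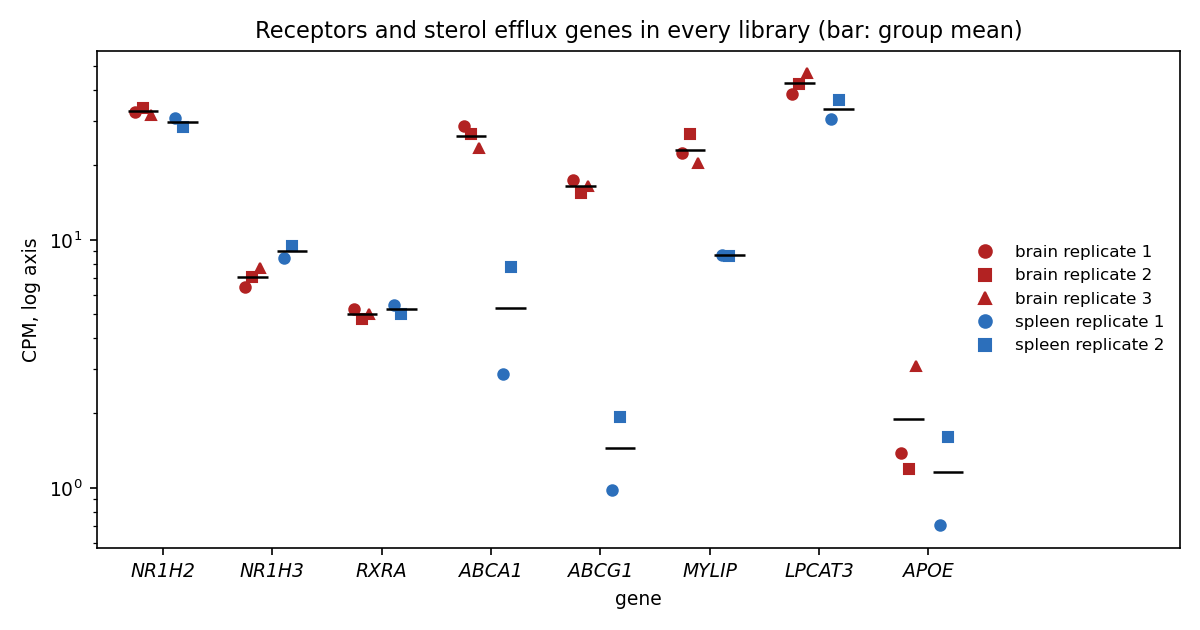
Level of each of the 8 genes in CPM (log axis), with 1 point per library (3 brain, 2 spleen) and bars at the group means. The brain points of ABCG1, ABCA1 and MYLIP sit clear of the spleen points, while those of RXRA and APOE overlap with them.

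ABCG1 (ENSG00000160179; GRCh38 chromosome 21, 42199689 to 42297244, plus strand) passes cholesterol to high-density lipoprotein. It was at 17.4, 15.5 and 16.5 CPM in brain replicates 1 to 3, from 680, 767 and 743 counts. In spleen replicates 1 and 2 it was at 0.980 and 1.92 CPM, from 43 and 97 counts. The lowest brain library lay far above the higher spleen library, and the brain libraries were close to one another. The means were 16.5 ± 0.963 CPM (SD, n = 3) and 1.45 ± 0.668 CPM (SD, n = 2). On the log2 scale the difference was 3.49 (SE 0.259, 95% interval 2.90 to 4.08), with an adjusted p of 0.000228 in edgeR's quasi-likelihood test. It ranked 26 by p among the 20419 genes and 56 by log2 fold change from the top. The ABCG1 fold of 11.2 became 8.50 without spleen replicate 1, 16.7 without spleen replicate 2 and 16.2 with the mouse share as a covariate.

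ABCA1 (ENSG00000165029; chromosome 9, 104781006 to 104928155, minus strand) loads cholesterol and phospholipid onto lipid-poor apolipoproteins, the first step of high-density lipoprotein formation. It was at 28.7, 26.7 and 23.4 CPM in brain replicates 1 to 3, from 1120, 1320 and 1052 counts. In spleen replicates 1 and 2 it was at 2.87 and 7.78 CPM, from 126 and 392 counts. The groups did not overlap, but the spleen libraries differed from each other by more than the brain libraries did in proportion. The ABCA1 means were 26.2 ± 2.68 CPM (SD, n = 3) and 5.32 ± 3.47 CPM (SD, n = 2). Its log2 fold change was 2.29 (SE 0.338, 95% interval 1.52 to 3.06), with an adjusted p of 0.00527 in edgeR's quasi-likelihood test. The fold of 4.90 became 3.35 without spleen replicate 1, 9.11 without spleen replicate 2 and 9.40 with the mouse share as a covariate. Part of ABCA1 is overlapped on the other strand by a long non-coding RNA.

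MYLIP (ENSG00000007944; chromosome 6, 16129086 to 16148248, plus strand) is an E3 ligase that sends lipoprotein receptors to degradation. It was at 22.4, 26.6 and 20.4 CPM in brain replicates 1 to 3, from 874, 1316 and 916 counts. The spleen libraries, at 8.68 and 8.61 CPM from 381 and 434 counts, lay close together and below all brain libraries. MYLIP thus differed by 1.42 on the log2 scale (SE 0.145, 95% interval 1.09 to 1.75), with an adjusted p of 0.000906 in edgeR's quasi-likelihood test. With the mouse share of each library as a covariate the log2 fold change was 1.35 and the call was lost, at an edgeR adjusted p of 0.0696. How far the mouse share bears on MYLIP beyond this fit was not tested.

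The receptors themselves differed little between the sites. NR1H2 (LXR beta, ENSG00000131408; chromosome 19, 50329653 to 50383388, plus strand) is the form made in most tissues. It was at 32.8, 34.0 and 31.8 CPM in brain replicates 1 to 3 and at 31.1 and 28.5 CPM in spleen replicates 1 and 2. The libraries did not overlap, but the gap was small. NR1H2 had a log2 fold change of 0.14 (SE 0.100, 95% interval -0.082 to 0.37), with an edgeR adjusted p of 0.413. The NR1H2 gene overlaps NAPSA, NAPSB and other genes on the other strand, and the strand setting of the counting is not given in the sources used here.

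NR1H3 (LXR alpha, ENSG00000025434; chromosome 11, 47248300 to 47269033, plus strand) is the form best known in liver and macrophages. Brain replicates 1 to 3 held 6.43, 7.09 and 7.69 CPM and spleen replicates 1 and 2 held 8.48 and 9.48 CPM, so every brain library was below both spleen libraries. For NR1H3 the log2 fold change was -0.34 (SE 0.154, 95% interval -0.69 to 0.0046), with an edgeR adjusted p of 0.201. NR1H3 overlaps the acid phosphatase gene ACP2 on the other strand.

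RXRA (ENSG00000186350; chromosome 9, 134317098 to 134440585, plus strand) is the partner that many nuclear receptors share. It was at 5.28, 4.81 and 5.00 CPM in brain replicates 1 to 3 and at 5.47 and 5.02 CPM in spleen replicates 1 and 2, and the groups overlapped. Its log2 fold change was -0.060 (95% interval -0.44 to 0.32), with an edgeR adjusted p of 0.874. The intervals of these 3 genes exclude a change of the size seen for MYLIP in either direction.

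LPCAT3 (ENSG00000111684; chromosome 12, 6976185 to 7018477, minus strand) adds polyunsaturated fatty acids to membrane phospholipids. It was at 38.6, 42.6 and 46.9 CPM in brain replicates 1 to 3 and at 30.8 and 36.7 CPM in spleen replicates 1 and 2. All brain libraries were above both spleen libraries, the nearest of them by a small gap. LPCAT3 had a log2 fold change of 0.34 (SE 0.124, 95% interval 0.059 to 0.62), and its edgeR adjusted p of 0.125 missed the threshold. LPCAT3 overlaps EMG1 and C1S on the other strand.

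APOE (ENSG00000130203; chromosome 19, 44905791 to 44909393, plus strand) encodes apolipoprotein E, which accepts effluxed cholesterol and binds lipoprotein receptors. Its counts were low, at 54, 59 and 140 in brain replicates 1 to 3 and 31 and 81 in spleen replicates 1 and 2. These are 1.38, 1.19 and 3.11 CPM in brain and 0.706 and 1.61 CPM in spleen. The groups overlapped, and brain replicate 3 held the highest value. The log2 fold change of APOE was 0.70 (SE 0.481, 95% interval -0.39 to 1.79), with an edgeR adjusted p of 0.408, and it lay between 0.14 and 1.42 when 1 library at a time was left out. A difference of the size seen for MYLIP falls inside this interval. Within each site, the human macrophage marker CD163 was also highest in brain replicate 3 and spleen replicate 2. It held 24, 13 and 98 counts in brain replicates 1 to 3 and 14 and 65 in spleen. LYZ, another, held 9, 12 and 38 counts in brain and 4 and 35 in spleen. CD14 and ITGAM were highest in the same libraries, but CD68, CSF1R and FCGR1A did not share this order. FCGR1A held 3, 3 and 0 counts in brain replicates 1 to 3 and 3 and 0 in spleen. MARCO held 0, 0 and 1 counts in brain and 0 and 1 in spleen, so both were near the floor. CD68 was highest in brain replicate 2, with 25, 85 and 46 counts in brain replicates 1 to 3. CSF1R was higher in CPM in spleen replicate 1 than in spleen replicate 2. The part of these markers in the APOE values was not tested.

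**Figure D2:**
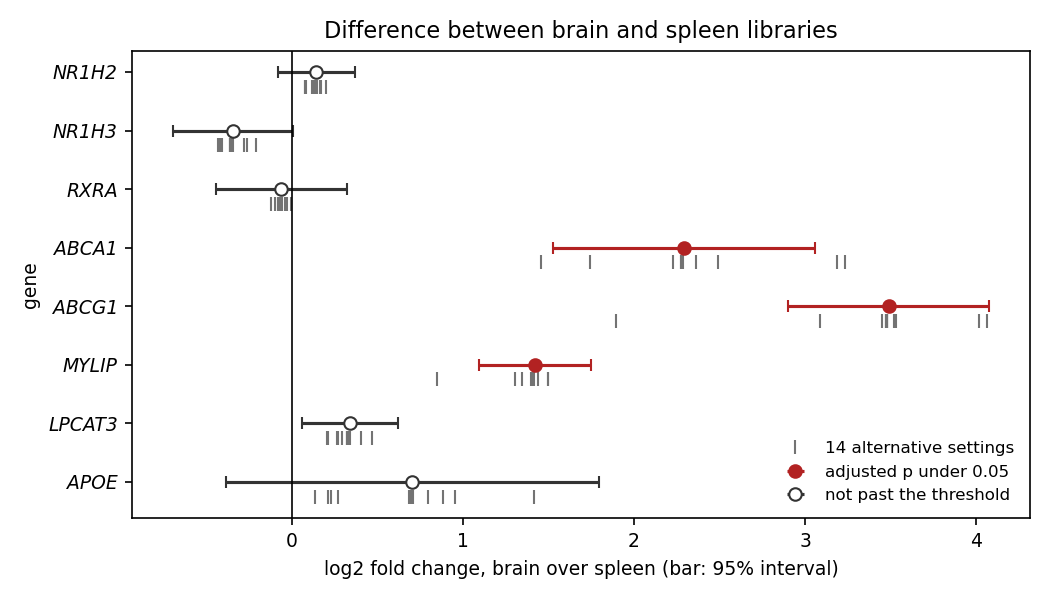
Log2 fold change, brain over spleen, of each of the 8 genes with its 95% interval from the fit over all genes, and grey ticks for the value under each of 14 alternative settings. ABCG1 (3.49), ABCA1 (2.29) and MYLIP (1.42) stand to the right of the others, and the intervals of NR1H2, NR1H3, RXRA and APOE include 0.

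Levels were compared between genes per transcript length, in TPM (transcript levels corrected for length and library size) summed over the transcripts of each gene. By the median over the 5 libraries the order was LPCAT3, NR1H2, MYLIP, NR1H3, ABCG1, ABCA1, APOE and RXRA. LPCAT3 ran from 20.8 to 32.5 TPM and NR1H2 from 20.2 to 25.8 TPM, so these neighbours overlapped. NR1H3 (7.89 to 13.0 TPM) was below NR1H2 in every library. The ratio of summed NR1H2 to summed NR1H3 was 2.79, 2.46 and 2.25 in brain replicates 1 to 3. In spleen replicates 1 and 2 it was 2.07 and 1.75. The NR1H3 sums include the retained-intron transcript NR1H3-225, which has no annotated protein and held 20.3% to 34.6% of them. The leading coding transcripts NR1H2-201 and NR1H3-201 had means of 20.4 and 3.37 TPM in brain and 17.3 and 3.94 TPM in spleen. RXRA, at 1.36 to 1.77 TPM, had the lowest mean in brain. The places of the changed genes depended on the site. In brain, mean levels were 13.3 TPM for MYLIP, 7.47 for ABCG1 and 3.25 for ABCA1, all above RXRA at 1.51. In spleen, ABCG1 (0.739 TPM) and ABCA1 (0.655 TPM) lay below RXRA (1.58 TPM), and their ranges over the spleen libraries overlapped with each other. RXRA-202 has 1846 bases in the deposited estimates and 5537 in GENCODE, and held 28.7% and 47.7% of RXRA's TPM in spleen replicates 1 and 2. RXRA-201, which has no defined coding sequence, held 70.6% and 51.1%. How the length of RXRA-202 bears on the place of RXRA at either site was not tested. MYLIP was above NR1H3 in every brain library and below it in both spleen libraries. In brain APOE (1.63 to 4.35 TPM) overlapped with ABCA1 and with RXRA.

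**Figure D3:**
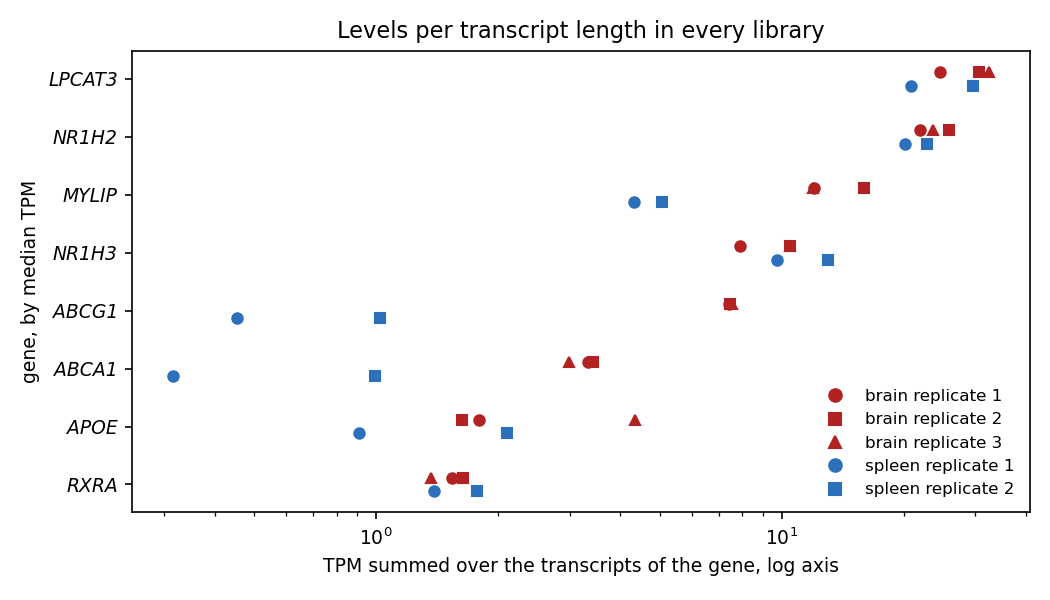
Summed TPM of each of the 8 genes, ordered by median, with 1 point per library. LPCAT3 and NR1H2 sit at the top in all libraries. On the deposited TPM, in which RXRA-202 is shorter than in GENCODE, ABCA1 and ABCG1 drop below RXRA in the spleen libraries.

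The transcript tables listed 86 transcripts of these genes, of which 30 held at least 5% of their gene's TPM in some library and 25 of those could be tested. None of the 25 passed edgeR's quasi-likelihood test after adjustment over 75118 transcripts, of which 0 passed. Without adjustment 6 of the 25 and 8.07% of all transcripts had a p under 0.05, and 19 of all transcripts passed the adjusted threshold when the filter on low counts was dropped. Transcript estimates also carry an error of assignment between similar isoforms that the test does not see.

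ABCA1 came almost wholly from 1 transcript, the protein-coding ABCA1-202. It was at 3.28, 3.38 and 2.94 TPM in brain replicates 1 to 3 and at 0.316 and 0.994 TPM in spleen replicates 1 and 2. That was 98.3% to 100% of the gene's TPM. The log2 fold change of ABCA1-202 was 2.31, close to that of the gene, with an edgeR adjusted p of 0.330.

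ABCG1 has several annotated starts, and the cluster of transcripts that begin between 42219117 and 42219140 on chromosome 21 held 75.7% to 87.1% of its TPM in brain and 43.7% and 68.8% in spleen replicates 1 and 2. This cluster, with ABCG1-203, ABCG1-205 and ABCG1-207, was at 5.97, 5.65 and 6.56 TPM in brain replicates 1 to 3 and at 0.198 and 0.705 TPM in spleen replicates 1 and 2. Within it ABCG1-203 encodes 678 residues and ABCG1-205, the reference transcript of the annotation, 666, from starts 22 bases apart. ABCG1-203 was at 3.09, 2.54 and 4.51 TPM in brain and 0.198 and 0.705 TPM in spleen. ABCG1-205 was at 2.79, 2.87 and 2.06 TPM in brain and was listed at 0 in both spleen libraries. Against a floor of 3 counts over the spleen libraries ABCG1-205 was 183-fold higher in brain. This is not a lower bound, because ABCG1-205 shares nearly all its sequence with ABCG1-203 and the division between them is uncertain. ABCG1-203 held 21.9 and 77.6 estimated counts in spleen replicates 1 and 2. All brain libraries of both transcripts lay above both spleen libraries.

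MYLIP had 2 transcripts, both protein-coding, whose starts lie 85 bases apart. MYLIP-201, which encodes 264 residues, was at 7.36, 9.44 and 7.32 TPM in brain replicates 1 to 3 and at 3.00 and 3.26 TPM in spleen replicates 1 and 2. MYLIP-202, the reference transcript with 445 residues, was at 4.65, 6.54 and 4.66 TPM in brain and at 1.31 and 1.81 TPM in spleen. Both were higher in every brain library than in either spleen library, with log2 fold changes of 1.31 for MYLIP-201 and 1.72 for MYLIP-202. The edgeR adjusted p was 0.237 for MYLIP-201 and 0.246 for MYLIP-202. MYLIP-202 has 1666 bases in the deposited tables and 3072 in GENCODE 44, and how this bears on the division of reads between the transcripts was not tested.

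Among the other genes, NR1H2-201 held 76.0% to 89.3% of NR1H2 and LPCAT3-201 held 70.3% to 85.0% of LPCAT3. NR1H3 was divided among many transcripts. Its protein-coding NR1H3-201 (402 residues) was at 3.65, 3.39 and 3.08 TPM in brain and at 3.51 and 4.38 TPM in spleen. The retained-intron transcript NR1H3-225, which has no annotated protein, was at 1.60, 2.82 and 3.63 TPM in brain and at 2.23 and 3.46 TPM in spleen. It held 20.3% to 34.6% of NR1H3's TPM, from 18.9 to 48.2 estimated counts per library. NR1H3-224, also a retained-intron transcript, held 6.67% to 11.6%, and smaller such forms were listed. The groups overlapped for NR1H3-201 and NR1H3-225. ACP2 overlaps NR1H3 by 607 bases on the other strand, and its part in these estimates was not tested.

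**Figure D4:**
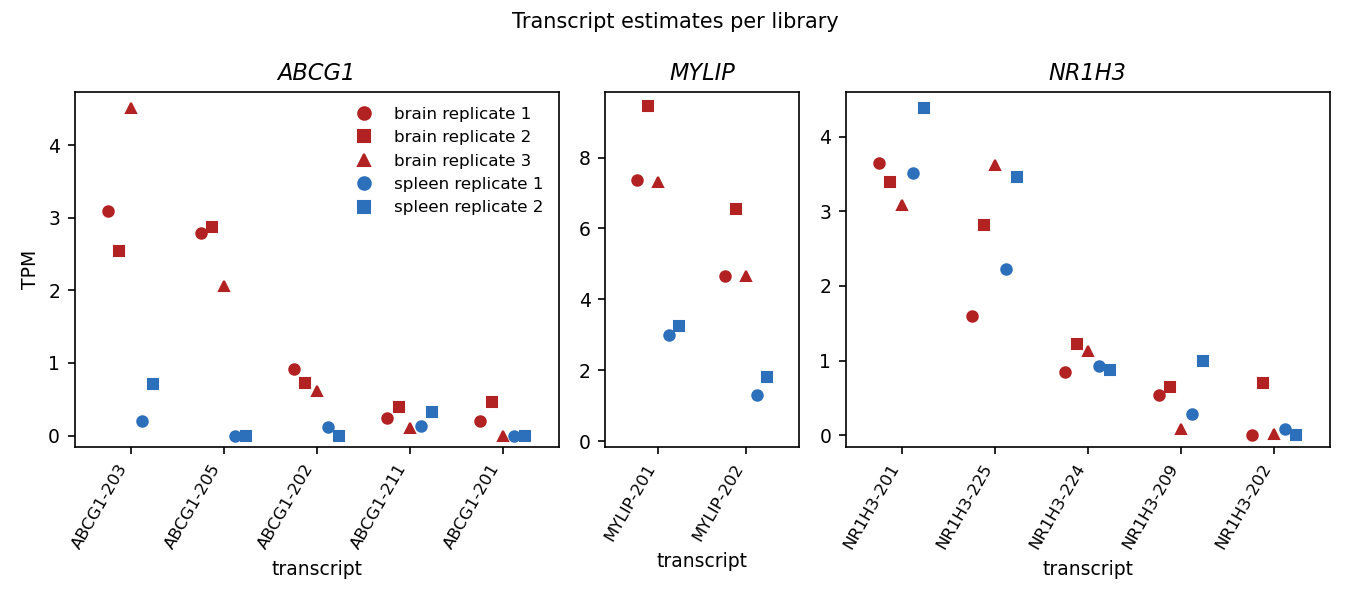
TPM of the leading transcripts of ABCG1, MYLIP and NR1H3, with 1 point per library and a separate linear axis per gene. ABCG1-203, ABCG1-205, MYLIP-201 and MYLIP-202 are higher in all brain libraries, while NR1H3-201 and NR1H3-225 overlap between the sites.

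The genes whose pattern over the 5 libraries was nearest to each changed gene were found among 12745 genes, by the root mean square difference in log2 CPM after centring each gene on its mean. The nearest to ABCG1 were FLT1 (0.261) and STARD4 (0.279). For ABCA1 they were GIMAP8 (0.071), ADGRE5 (0.214) and ADM (0.263), and for MYLIP they were TSPAN9 (0.057), HK2 (0.060) and SERINC5 (0.066). This is a description over 5 libraries from 2 sites, and such likeness includes the shared difference between the sites.

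Further genes around the pathway were read from 11 lists. Counting each gene once and leaving out the 8 genes above, 82 of 108 were tested. Of these, 9 passed the test as higher, 4 passed as lower and 69 did not pass, where 6.01% of all genes were higher and 3.5% lower. Their median log2 fold change was 0.056, against 0.0066 for all genes tested. Of 12 coregulators (corepressors and coactivators of nuclear receptors) none passed edgeR's test in either direction after adjustment. NRIP1 and NCOA2 had an unadjusted p under 0.05, as did 25.5% of all genes. The median of the coregulators was 0.039 on the log2 scale, and NRIP1, the most abundant, was at 302 ± 24.9 CPM (SD, n = 3) in brain and 245 ± 16.9 CPM (SD, n = 2) in spleen (edgeR adjusted p 0.122). The partner RXRB was at 69.2 ± 5.57 CPM in brain and 68.1 ± 3.86 CPM in spleen, and RXRG was listed at 0 in every library. Of 10 other nuclear receptors that pair with RXR, none passed, with a median of 0.014.

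Among the efflux transporters and acceptors, ABCG1 and ABCA1 were higher, 1 gene was lower and 8 did not pass. The lower gene was SCARB1, the receptor that exchanges cholesterol with high-density lipoprotein, at 68.0 ± 5.34 CPM (SD, n = 3) in brain and 100.1 ± 1.95 CPM (SD, n = 2) in spleen. Its log2 fold change was -0.56 (SE 0.0996, edgeR adjusted p 0.0120), and the call was lost without brain replicate 1 (0.0691). ABCA7, APOA1, APOC1, LCAT, PLTP, CETP and ABCG5 did not pass, and ABCA7 was at 8.10 CPM in brain and 7.38 CPM in spleen. Of the 10 other ABCA and ABCG transporters only ABCA4 passed, at 12.4 ± 3.30 CPM in brain and 6.26 ± 1.45 CPM in spleen (edgeR adjusted p 0.0430). The ABCA4 call was lost without brain replicate 1 or 2 or without either spleen library, with adjusted p-values up to 0.154.

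Of 12 further LXR target genes tested, 2 were higher and 0 lower, where 6.01% of all genes were higher and 3.5% lower. ABCG5, PLTP, CETP and APOC1, named above with the efflux genes, are also among these 12. SREBF1, the transcription factor of fatty acid and sterol synthesis, was at 109, 135 and 111 CPM in brain replicates 1 to 3 and at 21.4 and 22.9 CPM in spleen replicates 1 and 2. That is a difference of 2.42 on the log2 scale, at an edgeR adjusted p of 6.1e-05. SCD, the desaturase that makes monounsaturated fatty acids, was at 159 ± 42.2 CPM (SD, n = 3) in brain and 45.7 ± 8.47 CPM (SD, n = 2) in spleen, or 3.47 times as high in brain (edgeR adjusted p 0.00190). FASN, the fatty acid synthase, was at 193 ± 6.11 and 169 ± 34.5 CPM and did not pass (edgeR adjusted p 0.397). SREBF1 and SCD are also known targets of other sterol-sensing factors.

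Of the enzymes that make or clear sterol ligands, 5 were tested and 1 passed. DHCR7, which acts at the last step of cholesterol synthesis, was at 49.5 ± 8.60 CPM (SD, n = 3) in brain and 19.8 ± 0.286 CPM (SD, n = 2) in spleen, 2.50 times as high in brain (edgeR adjusted p 0.00139). CYP46A1 and CYP27A1, which make oxysterols, were at 3.24 and 0.434 CPM in brain and at 2.92 and 0.511 CPM in spleen, and EBP and HSD3B7 also missed the threshold.

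Among the substrates of MYLIP and their relatives, LRP8 was lower at 125 ± 18.3 CPM (SD, n = 3) in brain against 184 ± 1.95 CPM (SD, n = 2) in spleen (edgeR adjusted p 0.0307). The LRP8 call was lost without brain replicate 1 or 3 or without either spleen library (adjusted p up to 0.0951). VLDLR, a substrate that takes up lipoproteins, was at 107 ± 5.23 and 114 ± 10.1 CPM and did not pass. LRP1, a large receptor of the same family, was higher in brain by 0.53 on the log2 scale (edgeR adjusted p 0.0439), a call lost without any 1 of the brain libraries or without spleen replicate 2 (adjusted p up to 0.167). Protein was not measured for MYLIP or its substrates. The 4 tested ubiquitin partners of MYLIP did not pass, with a median of -0.14, and the most abundant, UBE2D3, was at 364 and 354 CPM.

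LPCAT3 was 1 of 8 lysophospholipid acyltransferases, of which 0 were higher and 1 was lower. That was LPCAT1, at 80.5 ± 7.58 CPM (SD, n = 3) in brain and 111 ± 5.88 CPM (SD, n = 2) in spleen (log2 fold change -0.47, edgeR adjusted p 0.0315), a call lost without brain replicate 1 or 2 or spleen replicate 1 (adjusted p up to 0.115). Among 12 genes of lysosomal and intracellular cholesterol supply, 3 were higher and 0 lower, against 6.01% and 3.5% of all genes. STARD4, which carries sterol between membranes, was at 18.9 ± 0.998 CPM in brain and 1.70 ± 0.0884 CPM in spleen, 11.1 times as high in brain at an edgeR adjusted p of 3.8e-05, with the smallest p of all genes. GRAMD1A and NPC2, with edgeR adjusted p-values of 0.0446 and 0.0447, lost their calls when any 1 library was left out, and NPC2 also with the replicate block (adjusted p 0.0947). With the mouse share as a covariate, the calls of SREBF1 and STARD4 held, and those of SCARB1, SCD, DHCR7, LRP8, LRP1, LPCAT1, ABCA4, NPC2 and GRAMD1A were lost.

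**Figure D5:**
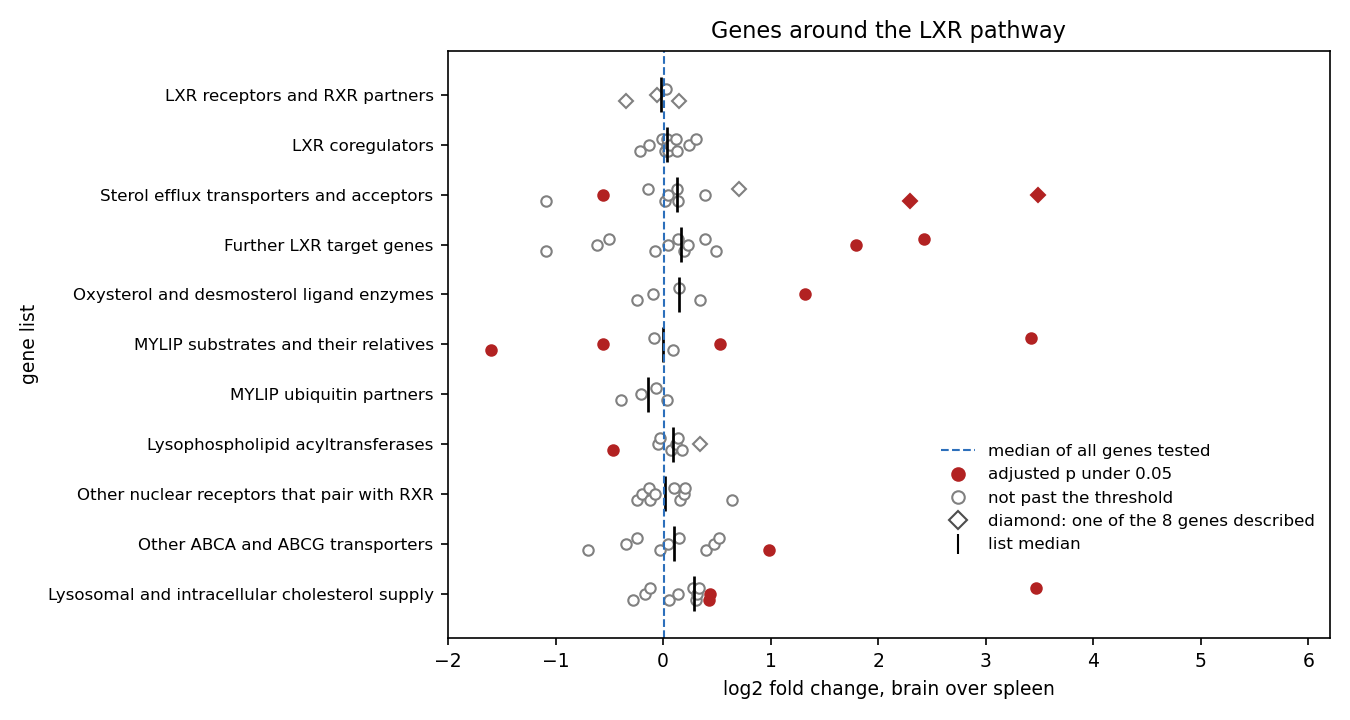
Log2 fold change, brain over spleen, of every tested gene in 11 lists, with filled red points past the threshold, diamonds for the 8 genes and a black bar at each list's median. Most genes lie near the median of all genes, and ABCG1, ABCA1, SREBF1 and STARD4 are among those that stand apart above a log2 fold change of 2.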

How the data were processed

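Per the labels' protocols, libraries were made with a stranded mRNA kit. Per the submitters' processing notes, bcl2fastq 1.8.4, cutadapt 1.5, kallisto 0.42.4 and DESeq2 were used with builds GRCh38 and GRCm38, in an order not given in the sources used here. The authors deposited kallisto estimated counts (one value per transcript) and TPM values, gene counts written as whole numbers, and rlog values on a log2 scale, which were used as an alternative. Each gene table held 1 column of no sample, which was not used. Symbols and coordinates came from GENCODE 44, and 86.4% of identifiers, holding 99.76% of counts, matched.

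Gene counts were tested with edgeR 4.0.16 (quasi-likelihood F test, filterByExpr, TMM, limma 3.58.1, R 4.3.3), with the site as the only term. Benjamini-Hochberg adjustment ran over 20419 genes. The fit had 3 residual degrees of freedom. It was run on simulated data in which every gene had the same spread and genes of low mean count were left unchanged. That simulation does not cover a spread that differs between genes, or changes in genes of low count. CPM used TMM-scaled library sizes. Estimated transcript counts were rounded to whole numbers and fitted in the same way. DESeq2 1.42.0 was an alternative.

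The members, lists and alternatives were chosen with earlier results of these data known. Named genes were the 8 members, up to 3 further genes per list past the threshold by smallest p (or the most abundant where none passed), the 3 most alike genes per changed member, SREBF1, and transcripts with at least 5% of a gene's TPM. Some genes that this rule takes are not reported here. Others named with a list were taken after their values were seen. Per the labels, replicate numbers mark occasions, so they pair brain and spleen libraries. The correlation of deviations was -0.025 for number 1 and 0.15 for number 2. With 2 spleen libraries, each brain library gives the same value with opposite sign for the other spleen library. Brain replicate 3 with spleen replicate 1 also gave 0.15, so these correlations cannot test the pairing. The spleen columns carry other numbers in the deposited table than in the titles, so this pairing is uncertain.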

Additional observations from a re-analysis of the deposited data

How the results depend on the processing

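ABCG1 and ABCA1 kept their direction and their call under all 14 alternatives, and MYLIP under 13. With the mouse share as a covariate MYLIP differed by 1.35 on the log2 scale (edgeR adjusted p 0.0696), and the calls over all genes fell to 114 higher and 11 lower. As a share of counts the mouse reads did not overlap between the sites. With the replicate block the calls were 1233 higher and 810 lower, APOE had a log2 fold change of 0.21 (0.70 without the block), NPC2 lost its call, and no member changed its call. Leaving out 1 library at a time gave 515 to 871 genes higher and 146 to 828 lower. The DESeq2 Wald test called 1289 genes lower, and without a filter on low counts edgeR called 1337 lower. The authors' rlog values are shrunken, and on them the log2 fold change of ABCG1 was 1.90. LRP1 (0.53, edgeR adjusted p 0.0439) lost its call in 8 of the 14 alternatives. With the block NR1H2-204 reversed to -7.00, NR1H3-209 to 0.094 and RXRA-202 to 0.14. Leaving out 1 library at a time reversed 9 transcripts, whose log2 fold changes ran from -0.26 to 0.70 for ABCG1-211, -0.058 to 1.47 for APOE-201, -0.61 to 0.11 for LPCAT3-213, -1.05 to 1.36 for LPCAT3-207, -0.20 to 3.45 for NR1H2-204, -0.40 to 0.16 for NR1H3-225, -1.12 to 0.43 for NR1H3-209, -0.22 to 0.18 for RXRA-201 and -0.55 to 0.25 for RXRA-202. For all of these the cause was not tested. Spleen counts were low for ABCG1 (43 and 97) and APOE (31 and 81).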

Other observations

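Human CD68, a macrophage marker, was higher in brain from 25, 85 and 46 counts in brain replicates 1 to 3 against 11 and 16 in spleen, while CD14, CD163, LYZ, CSF1R and ITGAM did not pass edgeR's test (log2 fold changes -0.061 to 0.32) and MARCO held 0 to 1 counts. PECAM1 was at 13.4 ± 3.66 CPM (SD, n = 3) in brain and 1.43 ± 0.485 CPM (SD, n = 2) in spleen, while CDH5, a marker of endothelial cells, held 0 to 6 counts, and VWF, COL1A1, COL1A2 and DCN did not pass (0.73, -0.040, -0.075 and -0.69 on the log2 scale). Whether these levels bear on ABCA1 or ABCG1, which macrophages and endothelial cells also express, was not tested.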
